A study of Mus musculus with 12 samples.

Results

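The Egr and Nr4a immediate early genes were followed in the lungs of mice with and without ventilator-induced lung injury (VILI). The set was Egr1, Egr2, Egr3, Nr4a1, Nr4a2, Nr4a3, the co-repressors Nab1 and Nab2, the transcription factor Srf and the early gene Ier2, chosen by name, 10 genes of the 18193 that the array's annotation names singly. They had 22 probe sets, of which 16 passed the filter on dim signal, and each of the 10 genes kept at least 1, so all were among the 10996 genes tested. Lungs of mice aged 8 to 12 weeks fell into 4 groups of 3 arrays: Gadd45a knockout after VILI, wild type after VILI, knockout with the label SB and wild type with the label SB. VILI was ventilation for 4 hours at 65 breaths per minute and a tidal volume of 30 ml/kg. SB is not spelled out in the labels, and the wild type SB group is the control of the series design. The knockout is written GADD45-/- or GADD-/- in the sample labels and Gadd45a in the series title, and the labels state neither the strain, the sex nor how the allele was made. The question the design poses is how the lung responds to high-volume ventilation and whether that response changes without Gadd45a.

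Immediate early genes are transcribed within minutes of a stimulus without new protein synthesis. Growth factors, stretch and stress act through the ERK kinases and Srf, which binds CArG boxes together with Ets-family partners, and through CREB, which binds the cAMP response element (CRE). Egr1, Egr2 and Egr3 encode zinc finger factors that bind a shared GC-rich site, and Nab1 and Nab2 bind the Egr proteins and repress their activity. Nr4a1, Nr4a2 and Nr4a3 encode orphan nuclear receptors that act without a known physiological ligand and are controlled mainly by how much of them is made.

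Stretches with motif matches are shown to set Egr2 and Srf, where CArG letters were found, beside the Nr4a genes, where repeated CRE letters were found; Egr1 and Egr3 are not shown. RefSeq promoters of GRCm38.p6 were matched by symbol, with the entries of a single chromosome left out for the 10 genes. This gave 7 of them, namely Egr2 (5 listed starts), Srf, Nr4a1, Nr4a2, Nr4a3, Nab1 and Nab2. A gene without a match here may therefore still have a promoter entry. The shares over all genes include that chromosome. The 250 bases before each start were searched on both strands for the CArG box, the CRE core TGACG, the whole CRE TGACGTCA, the Nr4a monomer site AAAGGTCA and the Egr site GCGTGGGCG; a whole CRE also counts as a core. Capitals mark the motif, each stretch runs 5′ to 3′ on the strand of its gene, and each lies before the start it is measured from.
Egr2, chr10:67537484-67537513, plus strand, CArG box: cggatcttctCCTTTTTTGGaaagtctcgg
Egr2, chr10:67537787-67537816, plus strand, CArG box: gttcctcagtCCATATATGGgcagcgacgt
Srf, chr17:46556205-46556254, minus strand, CArG boxes: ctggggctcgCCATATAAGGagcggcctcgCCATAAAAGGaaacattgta
Nr4a1, chr15:101266767-101266820, plus strand, CRE cores: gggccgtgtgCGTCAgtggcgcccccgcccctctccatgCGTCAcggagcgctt
Nr4a2, chr2:57124100-57124157, minus strand, CRE cores: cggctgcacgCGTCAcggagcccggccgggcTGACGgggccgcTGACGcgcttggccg
Nr4a3, chr4:48045064-48045114, plus strand, CRE cores: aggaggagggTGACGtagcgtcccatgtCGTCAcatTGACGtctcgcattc
Nab1, chr1:52500539-52500599, minus strand, Egr sites: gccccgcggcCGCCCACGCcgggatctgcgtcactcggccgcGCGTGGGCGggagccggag

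Srf held 2 CArG boxes in the window of its 1 start. Egr2 held 2 over its 5 starts, never both in the same window, so more bases were searched for Egr2. No CArG box was found in the windows of Nr4a1, Nr4a2, Nr4a3, Nab1 or Nab2. A CArG box was present in 1.62% of all genes with a promoter entry. Nr4a1, Nr4a2 and Nr4a3 each held 4 CRE cores, some of them outside the stretches shown, and Egr2 held 2, Srf 1 and Nab1 1. At least 1 core was found in 19.8% of all genes. Nab1 held 2 Egr sites, and at least 1 was found in 0.622% of all genes. The whole CRE and the Nr4a monomer site were found in none of these 7 genes, against 1.77% and 1.55% of all genes. A match describes the letters in these windows and no binding was measured.

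Lung markers were high on all arrays, with Sftpc (surfactant protein C) between 15.1 and 15.5 and Scgb1a1 (club cell secretory protein) between 15.5 and 15.9 on the log2 scale on all 12 arrays. The targeted gene Gadd45a read 5.36 to 6.02 in knockout VILI and 9.75 to 10.3 in wild type VILI, and 4.58 to 6.15 in knockout SB and 8.62 to 9.51 in wild type SB. Replicate 3 of knockout VILI and replicate 3 of knockout SB stood apart by their B cell markers (5 of 9 measured), with a mean level of 9.98 and 9.76, against 5.42 to 7.14 on the other 10 arrays. The mean of 9 measured neutrophil markers of 13 listed was 9.17 to 10.5 in knockout VILI and 7.02 to 7.66 in knockout SB, and 8.88 to 9.58 in wild type VILI and 6.67 to 7.08 in wild type SB. The mean of 13 endothelial markers was 10.7 to 11.2 in knockout VILI and 11.5 to 11.7 in knockout SB, and 11.1 on each wild type VILI array and 11.5 to 11.7 in wild type SB. The mean of 8 club and ciliated cell markers was 10.5 to 10.8 in knockout VILI and 11.04 to 11.10 in knockout SB, and 10.6 to 10.7 in wild type VILI and 11.1 to 11.4 in wild type SB. That of 7 type I epithelial markers was 12.2 to 12.7 in knockout VILI and 12.7 to 12.8 in knockout SB, and 12.6 to 12.7 in wild type VILI and 12.9 to 13.1 in wild type SB, without overlap in either genotype. In knockout, 7 neutrophil markers rose (2.76% of all genes were called higher) and 5 endothelial markers fell (1.7% were called lower) by limma with an adjusted p under 0.05. In wild type, 7 neutrophil markers rose (1.36% called higher) and 2 endothelial markers fell (1.28% called lower). The part of these cell types in the changes of the early genes was not tested. In whole lung RNA, a change in the number of cells of a type and a change in RNA per cell cannot be told apart.

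Ventilation raised the 3 Egr factors and Srf when averaged over the genotypes, while the 3 Nr4a receptors, both Nab co-repressors and Ier2 did not pass the test. Egr1, the founding member of the family and a sensor of shear and stretch in vessel walls, rose by 2.62 on the log2 scale (SE 0.45, limma adjusted p = 0.00379), 6.13-fold. Egr3 rose by 2.54 (SE 0.55, adjusted p = 0.0114), Egr2 by 2.34 (SE 0.32, adjusted p = 0.00147) and Srf by 0.82 (SE 0.20, adjusted p = 0.0188). These 4 of 10 stand beside 17.8% of all genes called in either direction and 8.42% called higher. Egr3 is counted among the 4 although it passed the filter on dim signal only through its VILI arrays. Its averaged call was kept without the filter (limma adjusted p = 0.0285). The median change of the 10 genes was 0.54, against -0.03 for all genes. All 4 calls were kept in each of the 12 fits that left out 1 array. The call of Srf was lost with the mean of its kept probe sets (0.43, limma adjusted p = 0.0851). The fit took all SB arrays as independent, although same-numbered SB arrays of the genotypes deviated together. The p-values of averages over genotypes can therefore be too small, here and below.

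Egr1 read 11.46, 11.95 and 12.80 in knockout VILI, against 8.51, 10.39 and 8.89 in knockout SB. In wild type it read 11.76, 11.80 and 12.22 after VILI, against 8.46, 11.04 and 8.99 in SB. Every VILI array lay above every SB array of both genotypes, and the highest SB arrays were replicate 2 of wild type and replicate 2 of knockout. Egr1 rose by 2.81 in knockout (SE 0.63, adjusted p = 0.0322). In wild type it was 2.43 higher (SE 0.63, adjusted p = 0.0671), which did not pass. Over the 12 fits without 1 array the wild type value ran from 1.91 to 3.20 (adjusted p from 0.0216 to 0.205) and passed in 1, without wild type SB replicate 2.

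Egr2, a factor of hindbrain, myelinating Schwann cells and myeloid cells, read 6.49, 7.72 and 7.41 in knockout VILI, against 5.14, 4.97 and 5.29 in knockout SB. In wild type it read 7.57, 7.65 and 8.15 after VILI, against 4.28, 6.35 and 4.90 in SB. The arrays of VILI and SB did not overlap in either genotype. Egr2 was the 1 of the 10 genes called in wild type, where it rose by 2.61 (SE 0.46, adjusted p = 0.0201), against 2.64% of all genes called and 1.36% called higher. It rose by 2.08 in knockout (SE 0.46, adjusted p = 0.0287). Its dimmer probe set moved by 2.17 in wild type and 1.94 in knockout.

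Egr3, which is induced with Egr1 in lymphocytes and neurons, read 6.32, 7.40 and 8.48 in knockout VILI, against 3.47, 4.23 and 4.94 in knockout SB. In wild type the values were 5.53, 6.28 and 6.998 after VILI, against 3.39, 6.31 and 3.43 in SB. The knockout groups were separate, and in wild type replicate 2 of SB lay among the VILI arrays. Egr3 rose by 3.19 in knockout (SE 0.78, adjusted p = 0.0429), and was 1.89 higher in wild type (SE 0.78, adjusted p = 0.196). The SB means, 4.21 in knockout and 4.38 in wild type, lie close to the median of all probe sets on an array (4.36 to 4.58). Only wild type SB replicate 2 and knockout SB replicate 3 lay above the median of their own array. Egr3 thus passed the filter only through its VILI arrays. The knockout call was kept in 4 of the 12 fits without 1 array. It was lost without the filter (limma adjusted p = 0.0708) and without the mean-variance trend (0.0501). It was also lost with each probe set tested on its own (0.0606). The averaged call was kept without the filter (0.0285). The other probe set of Egr3 stayed between 1.18 and 1.19 on all arrays and did not pass the filter.

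The calls within a genotype were less firm than the averaged ones. In knockout, 3 of 10 genes rose (Egr1, Egr2 and Egr3; background 4.47% of all genes in either direction, 2.76% higher), and this count was 0 without knockout SB replicate 1, knockout VILI replicate 2 or knockout VILI replicate 3. It was 1 without knockout SB replicate 2, wild type VILI replicate 1 or wild type VILI replicate 2, and without knockout SB replicate 3 the 1 called gene was Nab2. With both knockout replicates numbered 3 left out, the 1 called gene was again Nab2 (1.19, adjusted p = 0.0379), and Egr1 (2.25, adjusted p = 0.166), Egr2 (2.05, adjusted p = 0.117) and Egr3 (3.01, adjusted p = 0.122) did not pass. The wild type call of Egr2 was lost without wild type SB replicate 3 (adjusted p = 0.0940) or wild type VILI replicates 1, 2 or 3 (0.0583, 0.0810 and 0.0602). The size of the Egr changes held in these fits, between 1.82 and 3.73 in knockout and between 1.40 and 3.20 in wild type.

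**Figure D1:**
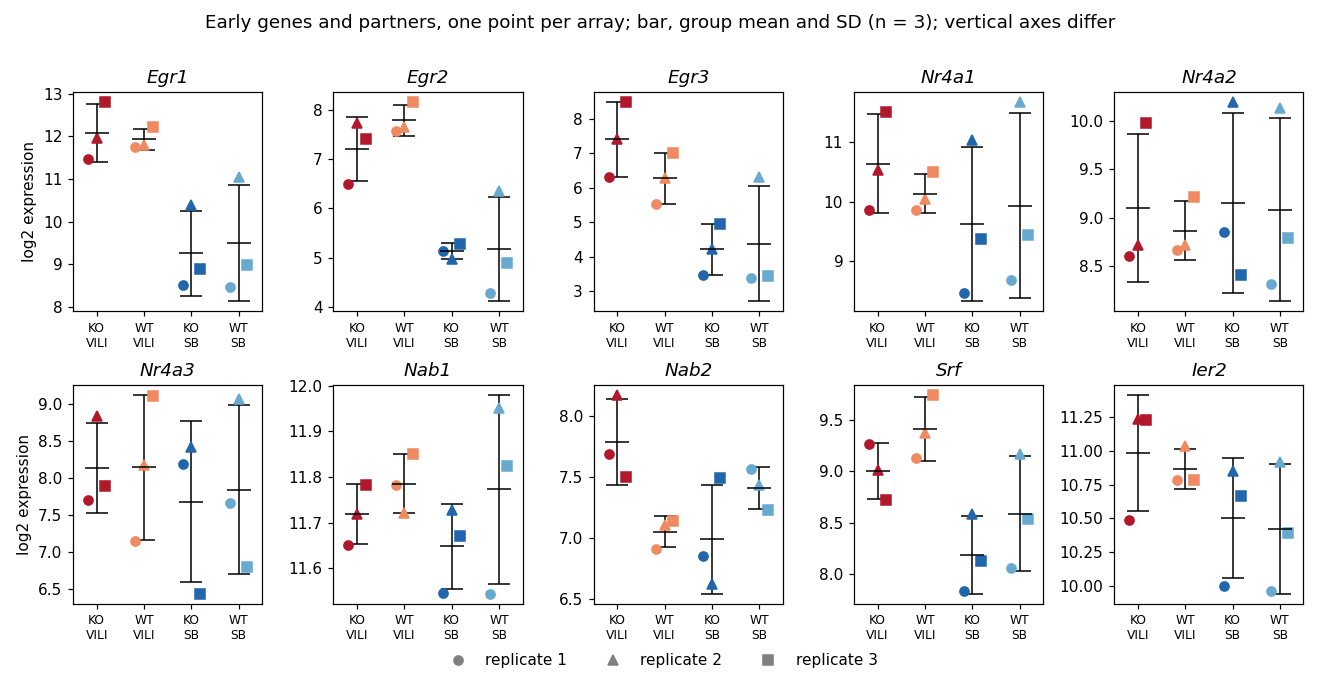
Log2 expression of the 10 genes on each array, with the mean and SD of 3 arrays per group; vertical axes differ between genes. Egr1 and Egr2 show VILI arrays above the SB arrays of the same genotype, whereas Nr4a1 and Nr4a2 overlap, with replicate 2 of SB (triangles) high in both genotypes.

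The Nr4a receptors showed no called change with ventilation. Nr4a1 (Nur77), an inducible receptor of macrophages, endothelium and T cells, read 9.86, 10.52 and 11.52 in knockout VILI, against 8.46, 11.03 and 9.36 in knockout SB. Wild type arrays read 9.86, 10.04 and 10.50 after VILI, against 8.67, 11.67 and 9.44 in SB. The highest of all 12 arrays was an SB array, replicate 2 of wild type. The VILI difference was 1.02 in knockout (95% interval -0.66 to 2.69) and 0.21 in wild type (-1.47 to 1.88). These intervals include a rise of more than 1 log2 unit as well as a fall in both genotypes.

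Nr4a2 (Nurr1), known for its part in dopamine neurons and induced by inflammatory signals, read 8.60, 8.72 and 9.98 in knockout VILI, against 8.85, 10.19 and 8.41 in knockout SB. The wild type values were 8.67, 8.71 and 9.21 after VILI, against 8.31, 10.13 and 8.79 in SB. The groups overlapped, and both SB replicates numbered 2 lay above all VILI arrays. The VILI difference was -0.05 in knockout (95% interval -1.23 to 1.14) and -0.21 in wild type (-1.40 to 0.97). Of its 6 probe sets 4 were kept, and their differences ran from -0.16 to 0.23 in knockout and from -0.73 to -0.21 in wild type.

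Nr4a3 (Nor1), a receptor induced in vascular smooth muscle and immune cells, read 7.70, 8.84 and 7.89 in knockout VILI, against 8.19, 8.43 and 6.43 in knockout SB. In wild type the values were 7.15, 8.18 and 9.12 after VILI, against 7.66, 9.07 and 6.80 in SB. The arrays of VILI and SB were interleaved in both genotypes. The VILI difference was 0.46 in knockout (95% interval -1.03 to 1.95) and 0.31 in wild type (-1.18 to 1.79). Of its 3 probe sets 1 was kept, and the others stayed below the median of the array on all 12 arrays.

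Neither co-repressor passed the test. Nab1, expressed in many tissues, stayed between 11.54 and 11.95 on all 12 arrays, with a VILI difference of 0.07 in knockout (95% interval -0.16 to 0.30) and 0.01 in wild type (-0.22 to 0.24). Its level was the steadiest of the 10 genes on these arrays. Nab2, which is itself induced by Egr1 and closes a feedback loop on it, read 7.69, 8.17 and 7.50 in knockout VILI, against 6.85, 6.62 and 7.49 in knockout SB. Wild type arrays read 6.90, 7.11 and 7.14 after VILI, against 7.56, 7.43 and 7.23 in SB. Every knockout VILI array lay above the knockout SB arrays, narrowly for replicate 3, and every wild type VILI array lay below the wild type SB arrays. The difference was 0.80 in knockout (SE 0.23, adjusted p = 0.0768) and -0.36 in wild type (SE 0.23, adjusted p = 0.404), and neither passed. Over the 12 fits without 1 array the knockout difference ran from 0.60 to 1.05 (adjusted p from 0.0291 to 0.241) and passed in 1, without knockout SB replicate 3.

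Srf, the CArG box factor itself, read 9.27, 9.02 and 8.72 in knockout VILI, against 7.84, 8.59 and 8.13 in knockout SB. The wild type values were 9.12, 9.37 and 9.74 after VILI, against 8.06, 9.17 and 8.54 in SB. Knockout arrays were separate by treatment, and wild type SB replicate 2 overlapped the VILI arrays. The difference was 0.82 in each genotype (SE 0.28), with adjusted p = 0.126 in knockout and adjusted p = 0.134 in wild type, so only the average passed. This value rests on the brighter of 2 probe sets. The dimmer one moved by -0.02 in knockout and 0.12 in wild type, and with the mean of both the averaged rise was 0.43 (adjusted p = 0.0851).

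Ier2, a small nuclear early gene product, read 10.49, 11.24 and 11.23 in knockout VILI, against 9.998, 10.85 and 10.66 in knockout SB. In wild type the values were 10.78, 11.04 and 10.78 after VILI, against 9.96, 10.92 and 10.39 in SB. The groups overlapped in both genotypes. The difference was 0.48 in knockout (adjusted p = 0.342), 0.45 in wild type (adjusted p = 0.394) and 0.46 averaged (SE 0.20, adjusted p = 0.127).

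Arrays of VILI and SB did not overlap for 5 of the 10 genes in knockout (all higher after VILI: Egr1, Egr2, Egr3, Nab2 and Srf), against 12.9% of all genes. In wild type 2 were higher (Egr1 and Egr2; 11.6% of all genes) and 1 was lower (Nab2; 20% of all genes).

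**Figure D2:**
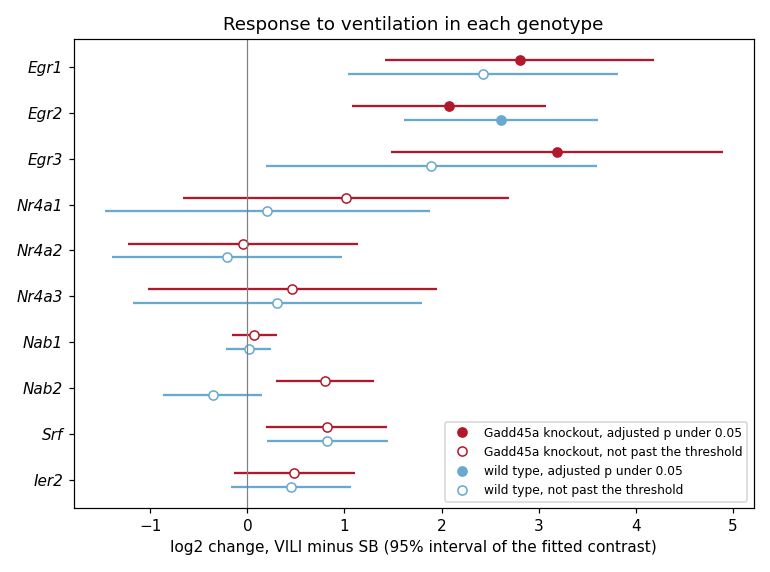
Log2 change (VILI minus SB) of each gene in knockout and wild type lungs with the 95% interval of the fitted contrast; filled points passed an adjusted p of 0.05. The Egr genes lie between 1.89 and 3.19 in both genotypes, the Nr4a genes between -0.21 and 1.02, and Nab2 lies on opposite sides of 0.

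The SB arrays were the more variable ones for these genes. The SD of 3 arrays was larger in SB than in VILI for 8 of 10 genes in knockout (53.7% of all genes) and for 10 of 10 in wild type (62% of all genes). Nr4a1 had an SD of 0.83 in knockout VILI and 1.30 in knockout SB, and 0.33 in wild type VILI and 1.56 in wild type SB. Wild type SB replicate 2 was the highest of its group for 9 of 10 genes, all but Nab2, which 39.8% of all genes also show. Knockout SB replicate 2 was the highest for 7 of 10 (30.1% of all genes), and both held together for these 7 genes, Egr1, Nr4a1, Nr4a2, Nr4a3, Nab1, Srf and Ier2 (18.2% of all genes). A single array also led in wild type VILI, where replicate 3 was the highest for 9 of 10 genes (40.8% of all genes). In knockout VILI replicate 3 was the highest for 5 of 10 (31.2% of all genes).

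The same SB arrays were high for other immediate early genes. Of 29 measured, wild type SB replicate 2 was the highest of its group for 25 (39.8% of all genes) and knockout SB replicate 2 for 20 (30.1%). Among the VILI arrays, wild type replicate 3 was the highest of its group for 20 (40.8% of all genes) and knockout replicate 2 for 18 (31.4%). Fos, a subunit of AP-1, read 10.67, 12.50 and 10.45 in the knockout SB replicates and 10.25, 12.50 and 10.87 in the wild type ones. Nfil3, a leucine zipper repressor, read 4.15, 7.09 and 4.57 in knockout SB and 4.82, 8.35 and 5.10 in wild type SB. On both genes replicate 2 reached the range of the VILI arrays, 11.42 to 12.89 for Fos and 6.96 to 8.72 for Nfil3. The median deviation of the 10 genes from their own means was 0.36 on wild type SB replicate 2 and -0.11 on knockout SB replicate 2, against -0.83 to -0.47 on the other 4 SB arrays and 0.01 to 0.73 on the VILI arrays. Wild type SB replicate 2 also had the lowest mean of 8 heart muscle markers (9.02, against 9.56 to 11.8 on the other arrays) and of 5 T and NK cell markers (5.67, against 5.91 to 8.02). It was also lowest for neutrophil (6.67) and B cell markers (5.42). For type I (13.1) and type II epithelial (13.5) and club and ciliated cell markers (11.4) it was highest, in part narrowly. For the macrophage, endothelial and fibroblast lists it was neither. The part of tissue composition in the early gene levels of these arrays was not tested. Leaving out both SB replicates numbered 2 was tried after their levels were seen, so it picks arrays by the genes described and supports no call. In that fit Nr4a1 was 1.40 higher after VILI (adjusted p = 0.0242) and Ier2 0.68 higher (adjusted p = 0.0451), averaged over genotypes, and 6 of the 10 genes passed. The share of all genes called in that fit was not computed, so the count of 6 has no background to stand beside.

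**Figure D3:**
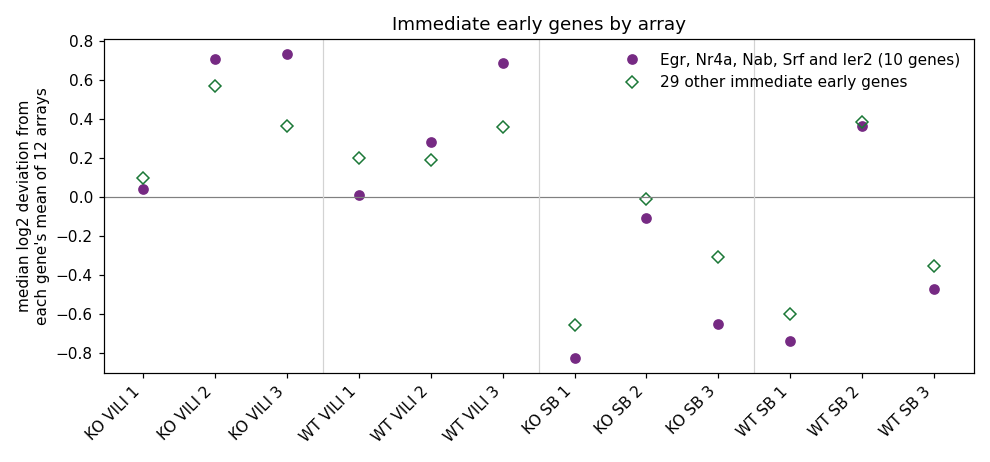
Median log2 deviation from each gene's mean over 12 arrays, for the 10 genes (filled) and for 29 other immediate early genes (open), by array. Replicate 2 of SB is the highest SB array in both genotypes and in wild type reaches the VILI arrays.

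Egr1 was set against each of the other 9 genes over the 6 VILI arrays and over the 6 SB arrays, which mix both genotypes. Nr4a2 followed Egr1 in the VILI arrays (r = 0.961, rho = 1, both with exact permutation p = 0.00278 and adjusted p = 0.025 over the 9 VILI relations). That p is the smallest that 6 arrays allow two-sided, and r was 0.939 without the 2 arrays farthest from the median of Egr1. These values used the brightest kept probe set of Nr4a2. None of its dimmer kept probe sets had the VILI arrays in the same order as Egr1, and their relations to Egr1 were not tested. Nr4a1 had an r of 0.958 with Egr1 in the VILI arrays (exact permutation p = 0.0139, adjusted p = 0.0625; rho = 0.886, exact permutation p = 0.0333, adjusted p = 0.15; r = 0.833 without the 2 farthest), which did not pass. Nab2 had an r of 0.005 (exact permutation p = 0.9, adjusted p = 0.9; rho = 0.143, exact permutation p = 0.803, adjusted p = 0.803) and Srf one of -0.382 (exact permutation p = 0.456, adjusted p = 0.586; rho = -0.257, exact permutation p = 0.658, adjusted p = 0.741). The other 5 VILI relations had adjusted p between 0.158 and 0.681 by Pearson's r. Without the 2 farthest arrays the r of Srf turned to 0.705, and that of Nab2 was 0.183. Srf rose with Egr1 over the wild type VILI arrays and fell with it over the knockout ones. For the other 5 genes the r without the 2 farthest ran from -0.181 (Ier2) to 0.981 (Egr2).

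SB arrays of the same number deviated together in both genotypes, so the 6 are not independent and their coefficients are given as a description, with no p. Egr1 and Nr4a1 had r = 0.992 and rho = 0.943 (r = 0.965 without the 2 farthest arrays). Srf had r = 0.910 and Ier2 r = 0.866 with Egr1, and 0.819 and 0.880 without the 2 farthest. Nr4a2 had r = 0.938, which became 0.190 without the 2 farthest arrays and so rests on them. Of the 6 VILI arrays, all with more Egr1 than any SB array, 5 had less Nr4a1 than both SB replicates numbered 2, as the scatter plot of both genes shows.

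**Figure D4:**
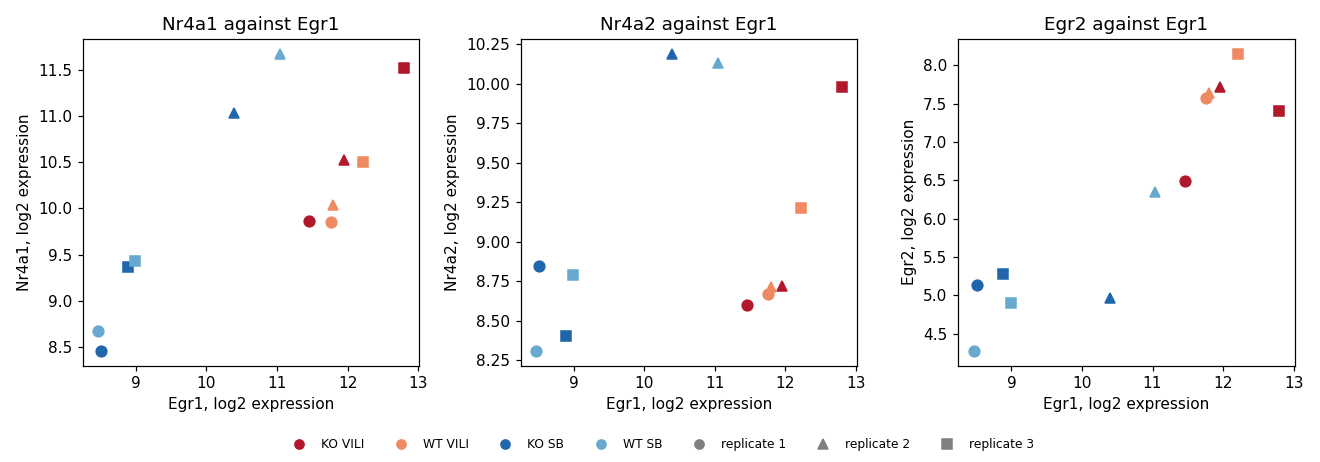
Log2 expression of Nr4a1, Nr4a2 and Egr2 against Egr1 on the 12 arrays, coloured by group and shaped by replicate. VILI and SB arrays form separate bands for Nr4a1 and Nr4a2, with the SB replicates numbered 2 high. Egr1 and Egr2 are both higher in VILI than in SB. Within a treatment their r was 0.436 over the VILI arrays and 0.725 over the SB arrays. Without the 2 arrays farthest from the median of Egr1 it was 0.981 and 0.498.

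Knockout and wild type lungs did not differ by a called amount in any of these genes. After VILI, 0 of 10 genes were called (background 0.1% of all genes, 11 in number), and Nab2 alone had an unadjusted p under 0.05 (6.88% of all genes did). Nab2 was 0.74 higher in knockout VILI than in wild type VILI (SE 0.23, unadjusted p = 0.00852, adjusted p = 0.507), with each knockout array above each wild type array, a separation that 6.64% of all genes show in that direction. Egr3 was 1.13 higher in knockout VILI (95% interval -0.58 to 2.84) and Egr1 0.14 higher (-1.24 to 1.53). In SB, 0 of 10 were called and 0 had an unadjusted p under 0.05, against 0.109% of all genes called and 10.1% with such a p. The SB differences, knockout minus wild type, ran from -0.42 (Nab2) to 0.08 (Ier2), with a median of -0.16 and -0.06 for all genes. These SB values come from the fit without pairing. In an unplanned fit of the SB arrays alone, with the replicate number as a block, the count of called genes stayed 0.

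The response to VILI was not called different between the genotypes for any of the 10 genes, nor for any of the 10996, of which 288 had an unadjusted p under 0.05 (2.62%). The difference of the responses, knockout less wild type, was 0.38 for Egr1 (95% interval -1.59 to 2.34), -0.53 for Egr2 (-1.95 to 0.88) and 1.29 for Egr3 (-1.12 to 3.71). The interval of Egr3 includes differences as large as its responses, and those of Egr1 and Egr2 end short of theirs. Nab2 had the smallest p of the 10, at 1.16 (SE 0.33, unadjusted p = 0.00455, adjusted p = 1.0).

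Other immediate early genes also rose, with Myc among the largest changes. Of 29 measured of 32 listed, 13 rose and 1 fell when averaged over genotypes (median 0.70, against -0.03 for all genes, of which 8.42% were called higher and 9.39% lower). The 13 became 8 without knockout SB replicate 1, knockout VILI replicate 2, wild type SB replicate 3 or wild type VILI replicate 3, and 9 to 16 without another array. Fosl1, an AP-1 subunit, rose by 3.20 (SE 0.54, adjusted p = 0.00346). Its SB arrays read 2.54, 4.35 and 2.55 in wild type and 2.53, 4.06 and 2.52 in knockout, each below the median of its array. Fosl1 thus passed the filter on dim signal only through VILI arrays, and the size of its rise rests on dim SB values. Atf3, a stress-induced repressor, rose by 2.47 (adjusted p = 0.0125), Myc, a growth regulator, by 2.46 (SE 0.26, adjusted p = 0.000412) and Plk3, a stress kinase, by 1.30 (adjusted p = 0.0126). Nfil3 rose by 2.37 (adjusted p = 0.0280), a call lost without any of 9 arrays in turn (highest adjusted p = 0.0686, without wild type SB replicate 3). Klf2, the flow-responsive factor of endothelium, fell by 1.48 (SE 0.16, adjusted p = 0.000486). Within knockout, Fosl1, Myc and Plk2 rose and Klf2 fell (4.47% of all genes called); Myc and Klf2 kept their calls in all 12 fits without 1 array, Fosl1 in 7 and Plk2 in 8. Within wild type, Myc and Jun rose and Klf2 fell (2.64% of all genes called), with calls kept in 10, 8 and 9 of the 12 fits; Jun, Klf2 and Myc all lost them without wild type SB replicate 3 or wild type VILI replicate 2. Fos was 1.17 higher on average (adjusted p = 0.0914) and Junb 0.73 higher (adjusted p = 0.161), so these did not pass, like Nr4a1.

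Genes around the Egr and Srf factors were called in both directions, and their counts stand beside 17.8% of all genes called in either direction (8.42% higher, 9.39% lower). Of 12 measured Srf partners and upstream kinases (18 listed), Crem, the inducible CRE-binding repressor gene, rose by 0.83 (adjusted p = 0.0254) and Creb1 fell by 0.40 (adjusted p = 0.0381), averaged over genotypes, with a list median of -0.02. Both calls depended on single arrays (highest adjusted p = 0.0633 for Crem without wild type VILI replicate 2 and 0.0893 for Creb1 without wild type SB replicate 3). Of 17 cytoskeletal targets of Srf, 2 rose, Zyx (zyxin, 0.39) and Tpm4 (a tropomyosin, 0.22), and 3 fell, Tagln by 0.41, Acta2 (smooth muscle actin) by 0.40 and Fhl1 by 0.32. The calls of Zyx, Tpm4 and Acta2 were lost without single arrays (highest adjusted p = 0.0874, 0.0630 and 0.0523). The list median was -0.09.

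Of 10 measured Egr target genes of 16 listed, F3 (tissue factor) rose by 1.37 (SE 0.21, adjusted p = 0.00251) and Cd44, the hyaluronan receptor, by 0.50 (adjusted p = 0.00580), and Id3 fell by 0.41 (adjusted p = 0.0299; 0.0717 without wild type SB replicate 3). Of 9 measured inhibitors that feed back on ERK signalling, Spry4 rose by 1.40 (SE 0.30, adjusted p = 0.0105), Dusp4 by 0.54 (adjusted p = 0.0441) and Spred2 by 0.47 (adjusted p = 0.0252), and Dusp7 fell by 0.55 (adjusted p = 0.0383). Of these 4, Spry4 kept its call in each fit without 1 array, and the others reached adjusted p = 0.101, 0.0629 and 0.0816. The counts of this paragraph stand beside 17.8% of all genes called in either direction, 8.42% higher and 9.39% lower. No Nr4a partner was called by limma averaged over genotypes (6 measured of 10 listed, 3 of them Nr4a1, Nr4a2 and Nr4a3 themselves, which the list also holds; median -0.05; Rxra and Hipk2 had an unadjusted p under 0.05; 1 was called lower without knockout SB replicate 1 or knockout VILI replicate 1), with Rxra, the retinoid X receptor that pairs with Nr4a1 and Nr4a2, 0.28 lower on average (adjusted p = 0.0910).

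Patterns most like 3 of the genes were sought by Pearson's r over the 12 arrays among 1326 genes whose SD over arrays was at least 0.5. These values describe shared levels over arrays that also share treatment. Egr1 was closest to Heatr1 (0.979), a nucleolar factor of ribosome synthesis, Socs3 (0.959), Atf3 (0.957), Arid5a (0.950) and Cldn4 (0.946), a claudin. Egr2 was closest to Krtap17-1 (0.974), Cldn4 (0.962), Rnd3 (0.955), Itpkc (0.954) and Sfn (0.952). Nr4a1 was closest to C730049O14Rik (0.880), Junb (0.852), Mapk8ip1 (0.841), Fos (0.840) and Sema4c (0.830). The 3 nearest lists share 1 gene, Cldn4, between Egr1 and Egr2, and no gene with that of Nr4a1.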

How the data were processed

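Lung RNA was labelled as biotinylated cRNA and read on single-colour Affymetrix arrays, per the labels' protocols. The deposited values are on a log2 scale, 1 per probe set, as the authors normalized them. MAS5 and GCRMA appear in the submitters' processing notes without role, order or version. No further scaling was applied. The 64 control probe sets were dropped, and probe sets above the array's own median on at least 3 of 12 arrays were kept (23082 of 45037). The brightest kept probe set represented a gene. The fit was limma 3.58.1 in R 4.3.3 (package data.table, version 1.17.8) on all 12 arrays, 1 mean per group, with a mean-variance trend (8 residual and 3.36 prior degrees of freedom), two-sided, with Benjamini-Hochberg adjustment over 10996 genes and a threshold of 0.05. Members of gene lists were named where called, at most 6 per list and contrast by size. Permutation tests used scipy 1.17.1 in Python 3.11.15, and figures matplotlib 3.10.9.

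The genes, lists and naming rule were chosen with earlier results of these data known. Each array was taken as 1 mouse, as the series design gives 3 mice per group; where samples were not separate animals, p-values measure only the spread between samples. The number of arrays limits the precision. Same-numbered SB arrays of the 2 genotypes deviated together over all genes (r = 0.231, 0.526 and 0.318), a pairing seen in the data and not in the labels. The main fit did not use it and took the arrays as independent. An unplanned fit of the SB arrays alone took the numbers as a block. In the other comparisons at least 1 pair lay under 0.1.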

Additional observations from a re-analysis of the deposited data

Results flagged for a closer look

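The Nab2 arrays were separated in opposite directions in the 2 genotypes, although neither change passed the test. Every knockout VILI array lay above every knockout SB array, with replicate 3 of knockout VILI at 7.496 and replicate 3 of knockout SB at 7.486, and every wild type VILI array lay below every wild type SB array. This arrangement was seen in 18 of 10996 genes (0.164%). The difference of the responses, knockout less wild type, was 1.16 on the log2 scale, with adjusted p = 1.0 by limma, so it failed the correction over all genes. Leaving out 1 array at a time gave 0.96 to 1.40.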

How the results depend on the processing

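The averaged VILI calls of Egr1, Egr2 and Egr3 held in all alternatives run, and that of Srf in all but the mean of its probe sets. The count of the 10 genes called within a genotype did not hold. Without the filter on dim probe sets it was 0 in wild type and 0 in knockout, with more genes tested. With only the 6 knockout arrays it was 0 in knockout. Without both knockout replicates numbered 3 it was 1. With the replicate block it was 2 in wild type, as Egr1 passed (adjusted p = 0.0351), and Ier2 averaged over genotypes also passed (0.46, adjusted p = 0.0169); it changed no other call of these genes. Leaving out 1 array at a time gave 0 to 2 in wild type, 0 to 3 in knockout and 4 to 4 averaged. Genotype and interaction counts stayed 0. Of all same-numbered arrays, 8 of 12 correlated best with an array of their own number, a hint from the data. Signs turned only for genes that were not called. Nab1 in wild type was -0.017 with centred arrays and -0.021 with quantile normalization, Nr4a2 in knockout 0.020 with the mean of its probe sets, and Nr4a3 in knockout -0.038 without both knockout replicates numbered 3. Leaving out 1 array gave Nr4a1 in wild type -0.42 to 1.08, Nr4a2 -0.60 to 0.31 in wild type, -0.49 to 0.47 in knockout and -0.35 to 0.13 averaged. It gave Nr4a3 -0.22 to 0.92 in wild type and -0.17 to 0.83 in knockout, and Nab1 -0.10 to 0.10 in wild type and -0.016 to 0.086 averaged. The causes were not tested beyond the number of genes or arrays in each fit. The test of each kept probe set on its own was added after the data were seen, as was the fit without both SB replicates numbered 2. Those arrays were chosen by the levels of these genes, so that fit is no evidence for a call. It gave 2 called in wild type, 3 in knockout and 6 averaged, with Nr4a2 at 0.31 in wild type, 0.47 in knockout and 0.39 averaged. The share of all genes called in that fit was not computed, so these counts have no background to stand beside.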
